A study of Mus musculus with 6 samples.

Results

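Wnt signaling genes were examined in tumors of BALB/c mice grown from 4T1 cells, a mouse mammary carcinoma line. The set held the genes whose symbol in the deposited table named a Wnt ligand, a Frizzled receptor, the co-receptors Lrp5 and Lrp6, a secreted antagonist of the Sfrp, Dkk or Wif families, an R-spondin or Lgr receptor, an Axin, Nkd or Tcf7l gene, or one of Znrf3, Rnf43, Ctnnb1, Apc and Porcn. It came to 52 of the 16763 genes in the table. Total RNA had been sequenced from 3 tumor samples of mice with 4T1 tumors, the model group, and from 3 of mice with 4T1 tumors that were also given DMDD in liposomes, the DMDD liposome group. Both groups thus carried the same tumor line in the same strain, and the labels give every animal as male, with no age, dose, route or time. DMDD is named in the labels by its abbreviation alone, and what the model group was given, empty liposomes included, is not stated. The descriptions of the samples speak of rats, whereas the organism, the strain and the gene symbols are of mouse. Nothing in the labels says which animal gave which library, so p-values measure the spread between these libraries only, which may be technical.

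Wnt proteins are secreted, lipid-modified signals that need Porcn, an acyltransferase of the secretory pathway, to be released in active form. They bind Frizzled receptors together with Lrp5 or Lrp6, and this stops a complex built on Axin and Apc from marking beta-catenin, the product of Ctnnb1, for destruction. Beta-catenin then works in the nucleus with factors of the TCF/LEF family, to which Tcf7l1 and Tcf7l2 belong. R-spondins bind the receptors Lgr4, Lgr5 and Lgr6 and spare Frizzled from the ubiquitin ligases Znrf3 and Rnf43. In the mammary gland the pathway is known for stem cell maintenance and branching, and mouse mammary tumor virus causes tumors by switching on Wnt genes.

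Promoter sequence was available for 35 of the 52 genes, in 41 windows of 250 bases before an annotated transcription start (RefSeq, GRCm38.p6). They were searched on both strands for CTTTGAA and CTTTGAT, the core letters that TCF/LEF factors recognize, which differ in the last base and so cannot be counted together at a single place. A match occurred in 2 of the 35 genes (5.71%), against 8.63% of the 27025 genes in the promoter table, and in 4.88% of the windows of these genes against 7.48% of all 32851 windows. The matches lay in Wnt5b, from 71 bases before a start, and in Wnt11, from 51 bases before a start and read on the opposite strand. Those windows follow with the match in capitals, beside those of Wnt10b, the ligand gene that separated the groups in the opposite direction from Wnt5b, and of Axin2, the negative feedback gene most used as a readout of the pathway, in which these letters were not found in this window. All are written 5′ to 3′ and end at the base before the start.
Wnt5b, chr6:119449387-119449636, minus strand: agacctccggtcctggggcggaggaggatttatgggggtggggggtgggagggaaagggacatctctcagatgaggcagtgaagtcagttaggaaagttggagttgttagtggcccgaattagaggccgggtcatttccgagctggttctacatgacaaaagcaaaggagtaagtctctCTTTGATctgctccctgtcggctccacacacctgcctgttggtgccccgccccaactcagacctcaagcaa
Wnt11, chr7:98834862-98835111, plus strand: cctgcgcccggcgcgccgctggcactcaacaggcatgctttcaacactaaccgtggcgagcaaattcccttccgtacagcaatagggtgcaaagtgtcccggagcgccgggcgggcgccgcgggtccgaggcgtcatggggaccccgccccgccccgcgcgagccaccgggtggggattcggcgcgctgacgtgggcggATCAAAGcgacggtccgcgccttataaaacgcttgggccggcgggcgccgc
Wnt10b, chr15:98778151-98778400, minus strand: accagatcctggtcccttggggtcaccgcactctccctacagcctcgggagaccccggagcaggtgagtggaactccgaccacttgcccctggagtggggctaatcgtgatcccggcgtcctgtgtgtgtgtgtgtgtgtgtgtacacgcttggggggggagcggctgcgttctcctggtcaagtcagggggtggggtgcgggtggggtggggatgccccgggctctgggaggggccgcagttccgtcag
Axin2, chr11:108920099-108920348, plus strand: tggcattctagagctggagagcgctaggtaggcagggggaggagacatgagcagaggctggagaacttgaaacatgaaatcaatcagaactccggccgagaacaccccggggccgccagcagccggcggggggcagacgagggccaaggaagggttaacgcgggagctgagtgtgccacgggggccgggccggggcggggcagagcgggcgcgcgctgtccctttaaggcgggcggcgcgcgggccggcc
The Wnt5b window belongs to 1 of the 3 starts listed for that gene. Wnt11 also has a further window, chr7:98838595-98838844, without a match. A match in letters is a description of the sequence and not evidence of binding.

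The 6 libraries held 13037500 to 15616840 counts each. The floor was set at 3 counts, which stood for 0.194 to 0.230 CPM (counts scaled to library size). Genes above this floor but with few counts still carry a large counting error. Markers of epithelial tumor cells were present in every library, with 11 of 11 listed genes above 0. Some libraries stood apart. Model replicate 2 held epidermal markers: the 12 epidermis and hair follicle genes found in the table, of 14 listed, summed to 277 CPM there and to 13.97 to 32.3 CPM in the others, where 5 to 7 of the 12 were at 0, and Krt1, a keratin of the epidermis, had 591 counts there and 0 elsewhere. DMDD liposome replicate 2 had the highest sums of stromal markers. Its 9 fibroblast genes summed to 10913 CPM against 4007 to 7569.5 CPM elsewhere. Its 8 pericyte and smooth muscle genes summed to 752 CPM against 214 to 384 CPM and its 7 fat cell genes to 105 CPM against 11.4 to 42.3 CPM. The fibroblast sum is carried by collagen genes, and Dcn and Lum of that list were highest in model replicate 2. No fibroblast or pericyte gene was at 0 in any library, while 0 to 4 of the fat cell genes were. The sums of 2 lists did not overlap between the groups: the 7 macrophage and monocyte genes, at 904 to 1592 CPM in model and 1745 to 2388 CPM in DMDD liposome, and the 6 mast cell genes, at 20.3 to 81.2 CPM in model and 4.604 to 19.01 CPM in DMDD liposome. T cell genes (6) summed to 29.9 to 37.8 CPM in model and 18.5 to 85.4 CPM in DMDD liposome and skeletal muscle genes (8) to 31.5 to 32.7 CPM in model and 11.1 to 256 CPM in DMDD liposome. The part of these cell types in the values of Wnt pathway genes was not tested. The level of model replicate 1 was closer to the average of the DMDD liposome libraries than to that of model replicates 2 and 3 for 8043 of the 12891 genes tested (62.4%) and for 23 of the 41 Wnt pathway genes tested (56.1%), on the scale of log2(CPM + 0.5). For a number of genes the value without such a library is given beside the main one.

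**Figure D1:**
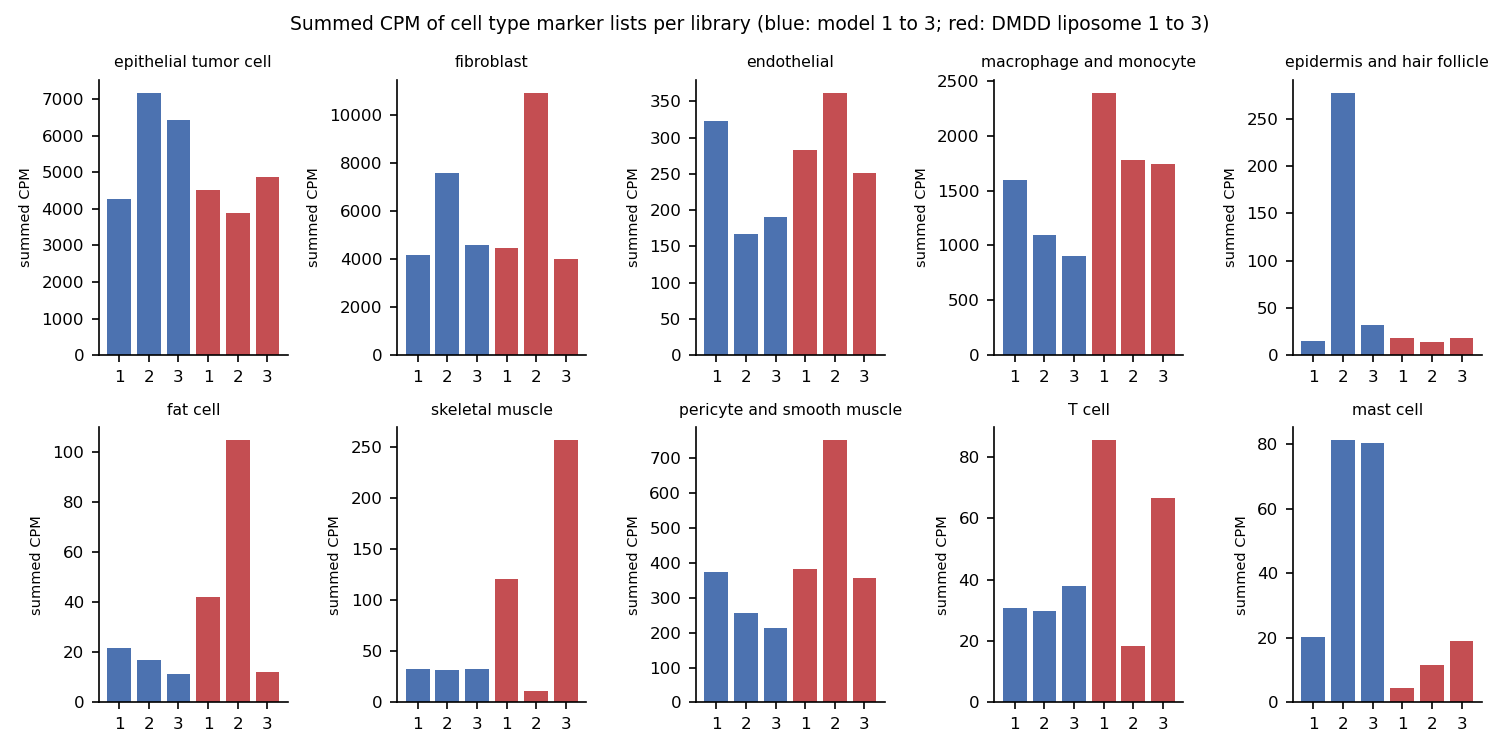
Each panel sums the CPM of a list of cell type markers (vertical axis) in each library (horizontal axis, replicates 1 to 3 of model in blue and of DMDD liposome in red). The epidermis and hair follicle sum is high in model replicate 2 alone, at 277 CPM, and the fibroblast sum is highest in DMDD liposome replicate 2, at 10913 CPM.

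Levels were compared between genes as FPKM, which is corrected for gene length, averaged over the 6 libraries. Ctnnb1 was the highest at 347 FPKM, followed by the ligand gene Wnt7b at 83.7, Lrp5 at 45.3 and Axin1 at 27.5 FPKM, and the ranges of these 4 over the libraries did not touch each other or that of the next gene. From the fifth gene, Fzd7 at 16.6 FPKM, downwards, each gene's range overlapped that of the next, so the order among them is not firm. Of the 52 genes, 12 averaged 10 FPKM or more, 17 lay between 1 and 10 FPKM, and 23 were under 1 FPKM. The test could be run on 41, and the 11 others had at most 14 counts in any library. Sfrp4 and Wnt9b had at most 3 counts in every library.

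Wnt7b, whose product acts in lung, kidney and mammary epithelium, made up most of the Wnt ligand message. Of the summed FPKM of the 17 Wnt genes it held 68.4%, 78.3% and 68.1% across model samples, against 68.7%, 60.4% and 69.6% across DMDD liposome samples. The sum itself was 109, 156 and 132 FPKM in model and 101, 121 and 106 FPKM in DMDD liposome, so the groups overlapped. Wnt10a came next among the ligand genes at 12.2 FPKM, then Wnt9a at 6.52, Wnt5a at 4.92 and Wnt7a at 4.69 FPKM. In 4 places 2 Wnt genes are neighbors with no other protein-coding gene between them in RefSeq, and their levels were far apart in 3 of the 4. Wnt10a stood beside Wnt6 at 0.893 FPKM, Wnt9a beside Wnt3a at 0.0156 FPKM, and Wnt10b at 2.58 FPKM beside Wnt1 at 0.175 FPKM. Wnt3 and Wnt9b, the fourth pair, averaged 0.0541 and 0.00802 FPKM, levels at which a difference cannot be read.

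**Figure D2:**
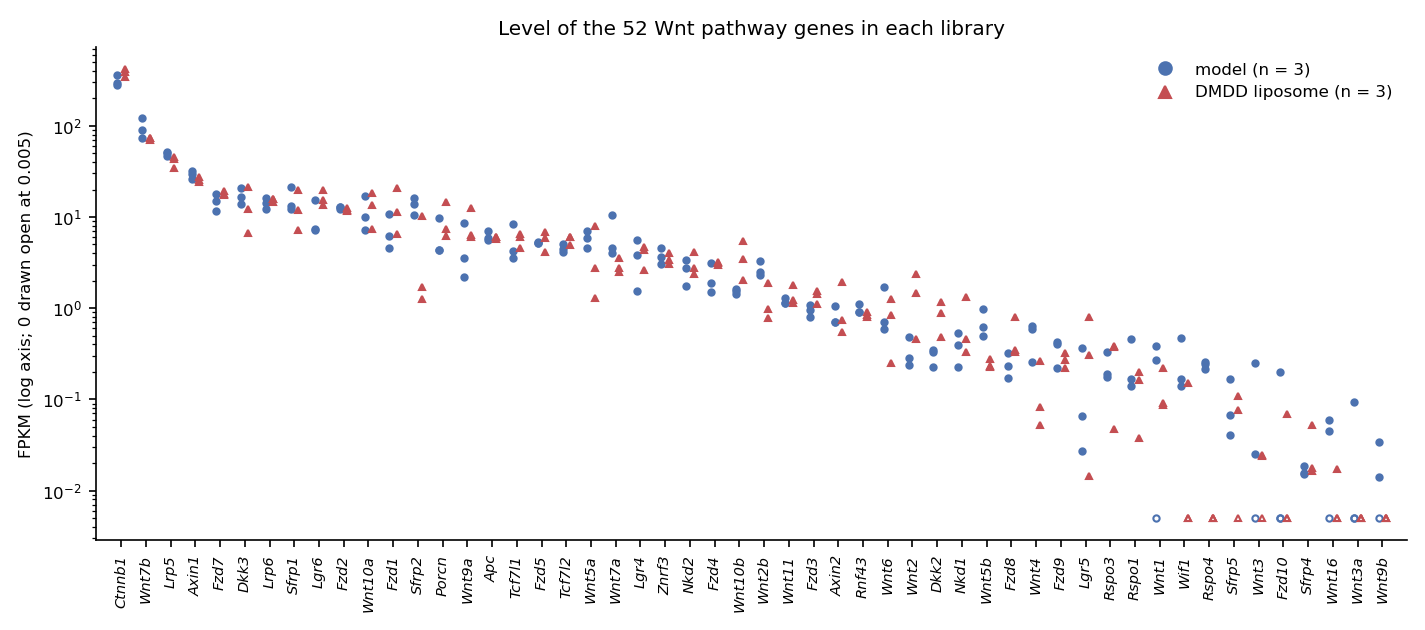
FPKM of the 52 Wnt pathway genes (log axis) in the 3 model (circles) and 3 DMDD liposome (triangles) libraries, ordered from the highest mean over 6 libraries; open symbols are values of 0 drawn at 0.005. Ctnnb1 and Wnt7b lead, and 23 genes average under 1 FPKM.

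The comparison asked how Wnt pathway genes differed between DMDD liposome and model tumors. None of the 41 genes tested passed edgeR's quasi-likelihood test after Benjamini-Hochberg adjustment over all 12891 genes, of which 0 (percent called 0) passed, and the smallest adjusted p among the 41 was 0.626. At an unadjusted p under 0.05 there were 10 of 41 (24.4%), against 7.65% of all genes tested: 4 higher in DMDD liposome (background 4.34%) and 6 lower (background 3.31%). DESeq2 adjusted calls came to 0 of the 52 (0.408% of all genes with an adjusted p). Sfrp4, Wnt3a, Wnt9b and Wnt16 had no adjusted p in DESeq2 and so could not be called. By DESeq2 13 of the 52 had an unadjusted p under 0.05 (7.02% of all genes with a p). The authors' deposited table also called 0 of the 52 (0.346% of its genes), with 13 at p under 0.05 (7.02%). Of the 41, 11 (26.8%) had groups with no overlap in CPM, against 12.9% of all genes tested: 4 with DMDD liposome higher (background 7.21%) and 7 with it lower (background 5.66%). The median log2 fold change of the 41 was 0.096, beside 0.0058 over all genes, and 24 were positive and 17 negative. Members of 1 pathway are not independent of each other, so these shares describe the set. The values below are measurements short of the adjusted threshold.

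Among the secreted signals themselves, 7 of the 12 Wnt genes tested had an unadjusted p under 0.05, against 7.65% of all genes tested. Of these 5 were lower and 2 higher in DMDD liposome. For 5 of the 12 (41.7%) the groups did not overlap, against 12.9% of all genes tested. Wnt7b measured 343, 561 and 425 CPM across model samples 1 to 3, against 312, 341 and 338 CPM across DMDD liposome samples 1 to 3. The highest DMDD liposome library lay just under the lowest model library, replicate 1, and model replicate 2 was the highest (log2 fold change -0.42 ± 0.18, unadjusted p = 0.0475, adjusted p = 0.644). Wnt7a, the close relative of Wnt7b with which it shares roles in vessel and epithelial development, measured 12.9, 14.6 and 34.5 CPM across model samples, against 7.79, 8.91 and 11.2 CPM across DMDD liposome samples. Its groups did not overlap, and model replicate 3 stood far above every other library (log2 fold change -1.15 ± 0.39, unadjusted p = 0.0191, adjusted p = 0.626). Without that library the log2 fold change of Wnt7a was -0.58, and without model replicate 2 that of Wnt7b was -0.22. Wnt4, a signal of progesterone-driven branching in the mammary gland, had 14, 41 and 39 counts across model samples, against 3, 15 and 5 counts across DMDD liposome samples. The groups of Wnt4 overlapped, since DMDD liposome replicate 2 lay above model replicate 1 (log2 fold change -1.90 ± 0.67, unadjusted p = 0.0227, adjusted p = 0.626), and without that DMDD liposome library the log2 fold change was -2.89. Markers of epithelial tumor cells summed to 4257, 7158 and 6434 CPM across model samples, against 4505, 3891 and 4872 CPM across DMDD liposome samples. Model replicates 2 and 3 were thus the highest for these markers too. Of the 11 genes of that list, 9 had a negative and 2 a positive log2 fold change (median -0.63). In the main edgeR fit 5 of them (45.5%) had an unadjusted p under 0.05, against 7.65% of all genes tested. All 5 were lower in DMDD liposome, and edgeR called 0 of the list. In bulk tumor, fewer cells of a type and less RNA per cell cannot be told apart, and the part of epithelial content in the values of these ligands was not tested.

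Wnt2b and Wnt5b were also lower. Wnt2b, a beta-catenin-activating ligand of mesenchyme, measured 10.8, 7.61 and 8.54 CPM across model samples, against 2.55, 6.35 and 3.20 CPM across DMDD liposome samples. All 3 model libraries lay above all 3 DMDD liposome libraries, and DMDD liposome replicate 2 came nearest to them (log2 fold change -1.16 ± 0.37, unadjusted p = 0.0150, adjusted p = 0.626). The mean ± SD of Wnt2b over 3 libraries was 8.99 ± 1.65 CPM for model, against 4.03 ± 2.03 CPM for DMDD liposome. Wnt5b, a ligand better known for signaling without beta-catenin, had 17, 40 and 26 counts across model samples, against 10, 8 and 9 counts across DMDD liposome samples, and its DMDD liposome libraries lay close together at 8 to 10 counts. Of the 41 genes in the edgeR test it had the smallest p (log2 fold change -1.53 ± 0.42, unadjusted p = 0.00693, adjusted p = 0.626), a value 2.89-fold lower in DMDD liposome, and its log2 fold change stayed between -1.73 and -1.23 whichever single library was left out. A promoter window of Wnt5b held CTTTGAT, and so, on the opposite strand, did a window of Wnt11, while the other windows of both genes held no match. The log2 fold change of Wnt11 was 0.21 ± 0.28 (unadjusted p = 0.472, adjusted p = 0.871) with overlapping groups. In RefSeq the span of Wnt2b overlaps that of St7l and the span of Wnt5b that of Fbxl14, both in the deposited table. Whole gene spans were compared and not exons, and no strand setting is stated. Whether reads from these partners entered the counts of Wnt2b and Wnt5b was not tested.

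Wnt10b and Wnt2 stood higher in DMDD liposome. Wnt10b, a ligand that holds back fat cell formation and drives mammary growth when expressed as a transgene, measured 4.83, 5.29 and 5.71 CPM across model samples, against 11.3, 18.7 and 6.81 CPM across DMDD liposome samples. The model libraries lay within 1 CPM of each other, and all 3 DMDD liposome libraries lay above them, over a wide range (log2 fold change 1.22 ± 0.36, unadjusted p = 0.0108, adjusted p = 0.626). Wnt2, a ligand of endothelium and fetal lung mesenchyme, had 7, 17 and 10 counts across model samples, against 45, 71 and 15 counts across DMDD liposome samples. Its groups overlapped, with DMDD liposome replicate 3 below model replicate 2, and its fold was the largest of the 41 genes in either direction at 4.11-fold (log2 fold change 2.04 ± 0.64, unadjusted p = 0.0137, adjusted p = 0.626). For both genes DMDD liposome replicate 2 was the highest, and without it the log2 fold changes were 0.77 and 1.43. That library also had the highest sums of fibroblast, pericyte and fat cell markers, though not the highest value of every fibroblast gene. The part of stromal content in these values was not tested.

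The other 5 Wnt genes tested had an unadjusted p above 0.05 in the main edgeR fit. Wnt10a, active in skin appendages and teeth, measured 17.8, 24.8 and 42.7 CPM across model samples, against 17.6, 45.5 and 32.9 CPM across DMDD liposome samples, so that both groups spanned a wide range and overlapped (log2 fold change 0.17 ± 0.41, unadjusted p = 0.687, adjusted p = 0.930). Porcn, on which secretion of active Wnt proteins depends, measured 18.6, 8.32 and 8.41 CPM across model samples, against 13.7, 28.2 and 11.8 CPM across DMDD liposome samples. Porcn was highest in DMDD liposome replicate 2 and next highest in model replicate 1, and the groups overlapped (log2 fold change 0.60 ± 0.44, unadjusted p = 0.205, adjusted p = 0.767). The log2 fold change of Porcn was 0.11 without DMDD liposome replicate 2 and 1.09 without model replicate 1 (edgeR adjusted p = 0.246). Wnt5a, the main ligand of beta-catenin-independent signaling, was chosen after its values were seen, for its spread: it measured 41.8, 48.9 and 32.7 CPM across model samples, against 8.78, 57.1 and 19.4 CPM across DMDD liposome samples. DMDD liposome replicates 1 and 3 were the lowest and replicate 2 the highest of all 6 libraries, and the log2 fold change of -0.54 became -1.55 without replicate 2 and -0.11 without replicate 1. The remaining tested genes, Wnt6, Wnt9a and Wnt11, had overlapping groups and log2 fold changes of -0.36, 0.78 and 0.21. Without model replicate 1, Wnt6 was at 0.24 and Wnt9a at 1.49 (edgeR adjusted p = 0.123), without DMDD liposome replicate 1 Wnt9a was at 0.39, and without DMDD liposome replicate 2 Wnt11 was at -0.045. Of the 5 Wnt genes too low to be tested, Wnt3 had 12 of its 15 counts and Wnt3a all 4 of its counts in model replicate 2, the library with epidermal markers, whose part in these counts was not tested. Wnt1 had 0 to 14 counts per library, and Wnt16 and Wnt9b at most 4.

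**Figure D3:**
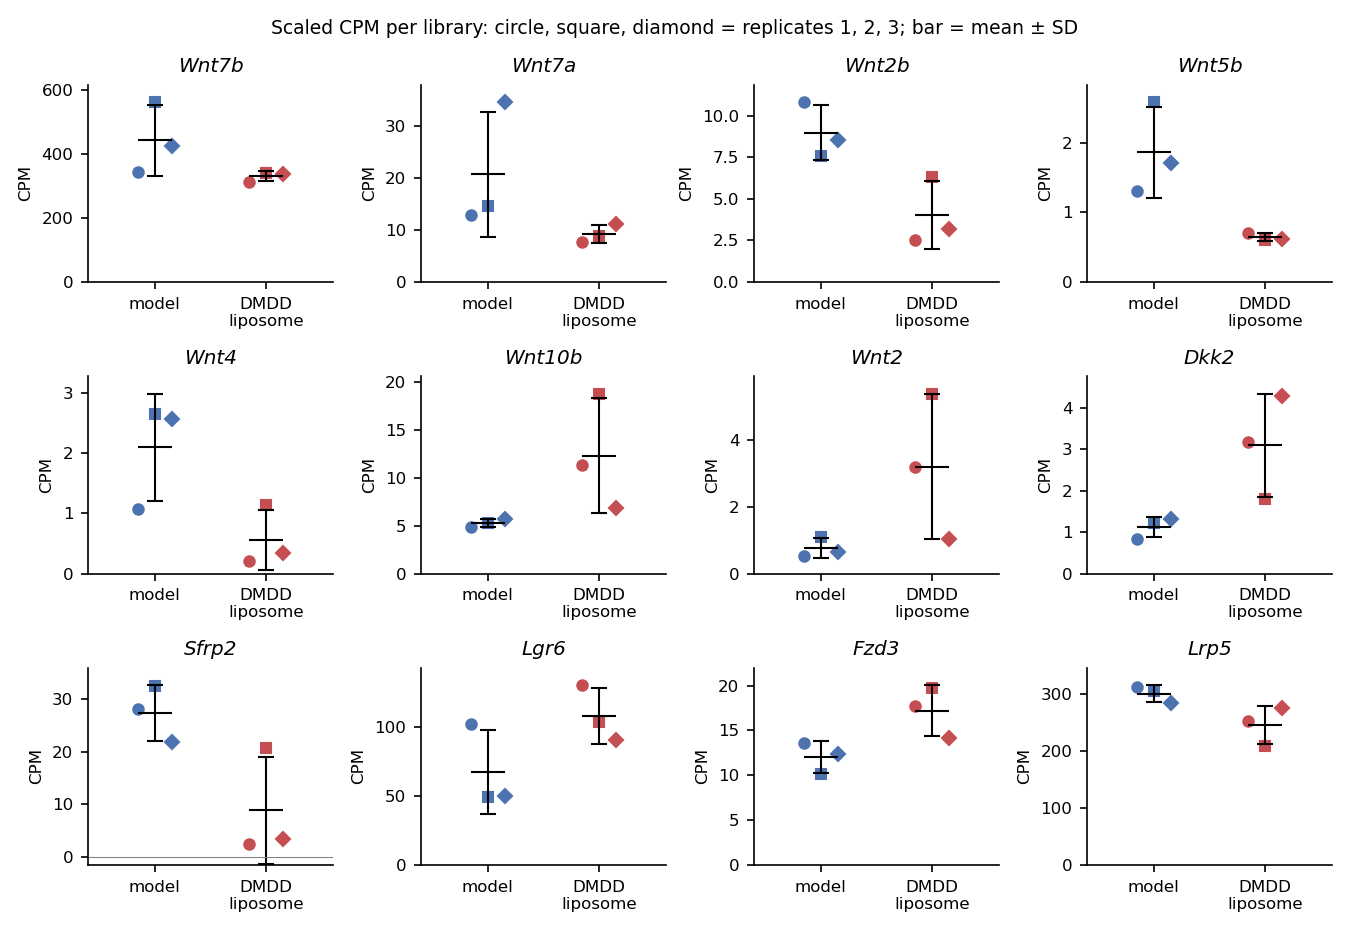
CPM (vertical axis, starting at 0 except where an SD bar passes below it) of 12 Wnt pathway genes in each library, with replicates 1, 2 and 3 as circle, square and diamond, and the mean ± SD over 3 libraries as black bars. Wnt2b, Wnt5b, Wnt7a, Wnt7b, Sfrp2 and Lrp5 show no overlap with DMDD liposome lower. Wnt10b, Dkk2 and Fzd3 show none with DMDD liposome higher, and Lgr6 shows model replicate 1 among the DMDD liposome libraries.

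Of the receptors, 10 of 11 genes were tested, and 7 had a positive and 3 a negative log2 fold change. In the main edgeR fit 2 of the 10 (20%) had an unadjusted p under 0.05, against 7.65% of all genes tested. Lrp5, the more abundant co-receptor, measured 312, 304 and 284 CPM across model samples, against 252, 208 and 274 CPM across DMDD liposome samples. Every DMDD liposome library was below every model library, and DMDD liposome replicate 2 was the lowest (log2 fold change -0.29 ± 0.12, unadjusted p = 0.0490, adjusted p = 0.644). Lrp6, its partner in binding Wnt proteins, measured 149.8, 114 and 136 CPM across model samples, against 143, 139.8 and 145 CPM across DMDD liposome samples, with the DMDD liposome values inside the range of the model values (log2 fold change 0.096 ± 0.12, unadjusted p = 0.437, adjusted p = 0.858). Fzd3, the Frizzled of axon guidance and planar polarity, measured 13.6, 10.1 and 12.4 CPM across model samples, against 17.7, 19.7 and 14.1 CPM across DMDD liposome samples. The groups of Fzd3 were separate with DMDD liposome higher, by a gap of under 1 CPM (log2 fold change 0.51 ± 0.20, unadjusted p = 0.0326, adjusted p = 0.629).

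Fzd2 and Fzd8 did not overlap between the groups either, though their p was above 0.05. In all, 4 of the 10 receptor genes tested (40%) did not overlap, against 12.9% of all genes tested. Fzd2, which binds ligands of both branches of the pathway, measured 46.6, 47.5 and 45.7 CPM across model samples, against 42.4, 43.2 and 45.4 CPM across DMDD liposome samples, a narrow spread in which DMDD liposome was 1.07-fold lower (log2 fold change -0.094 ± 0.10, unadjusted p = 0.363, adjusted p = 0.836). Fzd8, a receptor with high affinity for Wnt3a, had 14, 12 and 9 counts across model samples, against 16, 36 and 16 counts across DMDD liposome samples, and DMDD liposome replicate 2 stood alone at the top (log2 fold change 1.01 ± 0.51, unadjusted p = 0.0847, adjusted p = 0.671), with a log2 fold change of 0.45 without it. Fzd7 was the most abundant Frizzled, is a receptor of basal-like breast cancer and stem cells, and measured 81.9, 52.1 and 69.5 CPM across model samples, against 76.9, 83.02 and 87.5 CPM across DMDD liposome samples. The low value of Fzd7 in model replicate 2 lay apart from the others, and the groups overlapped (log2 fold change 0.28 ± 0.17, unadjusted p = 0.131, adjusted p = 0.718), with a log2 fold change of 0.12 without it. Fzd4, the receptor for the vascular signal norrin, was chosen after its values were seen and measured 20.9, 12.7 and 10.3 CPM across model samples, against 20.5, 21.8 and 19.6 CPM across DMDD liposome samples. Its model replicate 1 fell among the DMDD liposome libraries, and without that library its log2 fold change of 0.50 was 0.84 (adjusted p = 0.0788 by edgeR), whereas without model replicate 3 it was 0.29. Endothelial markers, 8 of 8 listed and none at 0, summed to 323, 167 and 191 CPM across model samples, against 284, 361 and 251 CPM across DMDD liposome samples, also with model replicate 1 among the DMDD liposome libraries, and their part in the Fzd4 value was not tested. Fzd4 overlaps Tmem135 in RefSeq, which is in the deposited table. Fzd10, not tested, had 10 counts in model replicate 2, 3 in DMDD liposome replicate 2 and 0 in the other libraries. Fzd9 had 7 to 15 counts in every library. Fzd1 and Fzd5 had log2 fold changes of 0.84 and 0.086 with overlapping groups. Fzd1 stood at 0.28 without DMDD liposome replicate 2 and at 1.25 without model replicate 2 (edgeR unadjusted p = 0.0428, adjusted p = 0.836). Fzd5 stood at -0.051 without DMDD liposome replicate 1 and at 0.24 without replicate 2 of that group.

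Among the R-spondin branch, 6 of 8 genes were tested and 0 had an unadjusted p under 0.05 in the main edgeR fit of all 6 libraries (edgeR called 0). Lgr6, a stem cell marker of skin and mammary epithelium, was the most abundant at 13.1 FPKM and measured 103, 49.7 and 49.9 CPM across model samples 1 to 3, against 130.4, 104 and 90.5 CPM across DMDD liposome samples 1 to 3. Model replicate 1 lay within the DMDD liposome range, whereas model replicates 2 and 3 lay far below it and within 1 CPM of each other (log2 fold change 0.69 ± 0.30, unadjusted p = 0.0525, adjusted p = 0.644). Without model replicate 1, the log2 fold change of Lgr6 came to 1.12, and it alone among the 41 passed edgeR's adjusted test (adjusted p = 0.0485). In that fit 112 of 13159 genes passed (0.851%), and 17 of the 41 genes had an unadjusted p under 0.05, against 16.3% of all genes. DESeq2 without model replicate 1, an alternative added after the data were seen, called 5 of the set (6.31% of all genes with an adjusted p): Lgr6, Fzd4 and Wnt9a higher, Wnt7a and Wnt7b lower in DMDD liposome. Model replicate 1 had been seen to stand apart before it was left out, so these fits do not count as independent evidence.

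Lgr4, the broadly expressed R-spondin receptor, measured 28.2, 7.87 and 20.03 CPM across model samples, against 22.9, 13.5 and 21.9 CPM across DMDD liposome samples. Its lowest value, in model replicate 2, moved the log2 fold change of 0.062 ± 0.43 to -0.31 when that library was left out. Lgr5, the stem cell marker of intestine and hair follicle, was chosen after its values were seen and had 4, 27 and 2 counts across model samples, against 20, 51 and 1 counts across DMDD liposome samples. Counts of Lgr5 were high in DMDD liposome replicates 1 and 2 and in model replicate 2, and at most 4 in the rest, and the log2 fold change of 1.25 was -0.0074 without DMDD liposome replicate 2. Znrf3, the ligase that removes Frizzled from the surface, measured 36.3, 24.2 and 29.7 CPM across model samples, against 31.02, 24.2 and 26.6 CPM across DMDD liposome samples, with overlapping groups (log2 fold change -0.14 ± 0.18, unadjusted p = 0.463, adjusted p = 0.868). Rnf43, its relative, had a log2 fold change of -0.21 ± 0.24. Rspo4, the R-spondin needed for nail growth, was not tested because its counts were low, and had 8, 9 and 8 counts across model samples, against 0, 0 and 0 counts across DMDD liposome samples. The groups of Rspo4 were thus fully separate, and taking 3 counts per library as the floor it was at least 2.67-fold lower in DMDD liposome. With no filter on low counts its unadjusted p was 0.00204 in edgeR (adjusted p = 0.638), and the authors' deposited table gave it the smallest p of the set, 0.00118 (adjusted p = 0.123). Rspo3 and Rspo1, ligands for the same receptors, had at most 17 and 13 counts in a library.

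Of the secreted antagonists, 4 of 7 were tested. In the main edgeR fit 1 of these 4 (25%), Dkk2, had an unadjusted p under 0.05, against 7.65% of all genes tested. Dkk2, which binds Lrp5 and Lrp6 and blocks or weakly activates them, had 11, 19 and 20 counts across model samples, against 45, 24 and 63 counts across DMDD liposome samples. Each DMDD liposome library lay above each model library, at a mean of 1.13 ± 0.250 CPM for model, against 3.10 ± 1.24 CPM for DMDD liposome (SD over 3 libraries). Dkk2 was 2.73-fold higher in DMDD liposome (log2 fold change 1.45 ± 0.42, unadjusted p = 0.00979, adjusted p = 0.626), and leaving out any 1 library kept its log2 fold change between 1.14 and 1.71. Sfrp2, a Frizzled-like decoy made by fibroblasts, measured 28.1, 32.4 and 21.8 CPM across model samples, against 2.48, 20.6 and 3.41 CPM across DMDD liposome samples. DMDD liposome replicates 1 and 3 were far below any model library, but replicate 2 was only just below the lowest of them (log2 fold change -1.64 ± 0.72, unadjusted p = 0.0541, adjusted p = 0.644). Without DMDD liposome replicate 2 the log2 fold change of Sfrp2 was -3.22 (unadjusted p = 1.20e-05, adjusted p = 0.158 by edgeR).

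Dkk3, a Dkk relative that does not bind Lrp6, measured 56.3, 69.6 and 47.3 CPM across model samples, against 21.96, 71.8 and 40.3 CPM across DMDD liposome samples. Dkk3 was low in DMDD liposome replicate 1 and high in replicate 2, as Wnt5a was (log2 fold change -0.37 ± 0.38, unadjusted p = 0.364, adjusted p = 0.836). Its log2 fold change was -0.90 without DMDD liposome replicate 2 (unadjusted p = 0.0191, edgeR adjusted p = 0.534) and -0.043 without replicate 1. Sfrp1, another decoy, measured 54.1, 57.1 and 94.7 CPM across model samples, against 30.7, 53.3 and 86.9 CPM across DMDD liposome samples, with the third replicate the highest in each group and broad overlap (log2 fold change -0.27 ± 0.38, unadjusted p = 0.498, adjusted p = 0.877). Fibroblast markers, 9 of 9 listed and none at 0, summed to 4150.4, 7569.5 and 4573 CPM across model samples, against 4483, 10913 and 4007 CPM across DMDD liposome samples. That sum is carried by the collagen genes Col1a1, Col1a2 and Col3a1. Of the 9 genes of the list, 6 had a positive and 3 a negative log2 fold change (median 0.24). In the main edgeR fit 1 of the 9 (11.1%) had an unadjusted p under 0.05, against 7.65% of all genes tested. That gene was higher in DMDD liposome. Dcn, Lum, Pdgfrb and Thy1 of the same list were like Sfrp2 lower in DMDD liposome replicates 1 and 3 than in any model library. They were singled out for this likeness after their values were seen and do not stand for the list. Dcn measured 51.4, 109.6 and 80.4 CPM across model samples, against 37.6, 81.3 and 29.8 CPM across DMDD liposome samples. Lum measured 58.4, 86.02 and 57.9 CPM across model samples, against 29.2, 80.7 and 28.6 CPM across DMDD liposome samples. The part of fibroblast content in the values of Sfrp2 and Dkk3 was not tested. Of the antagonists not tested, Wif1, which binds Wnt proteins directly, had 14, 6 and 5 counts across model samples, against 0, 0 and 5 counts across DMDD liposome samples. Sfrp4 and Sfrp5 had at most 5 counts.

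**Figure D4:**
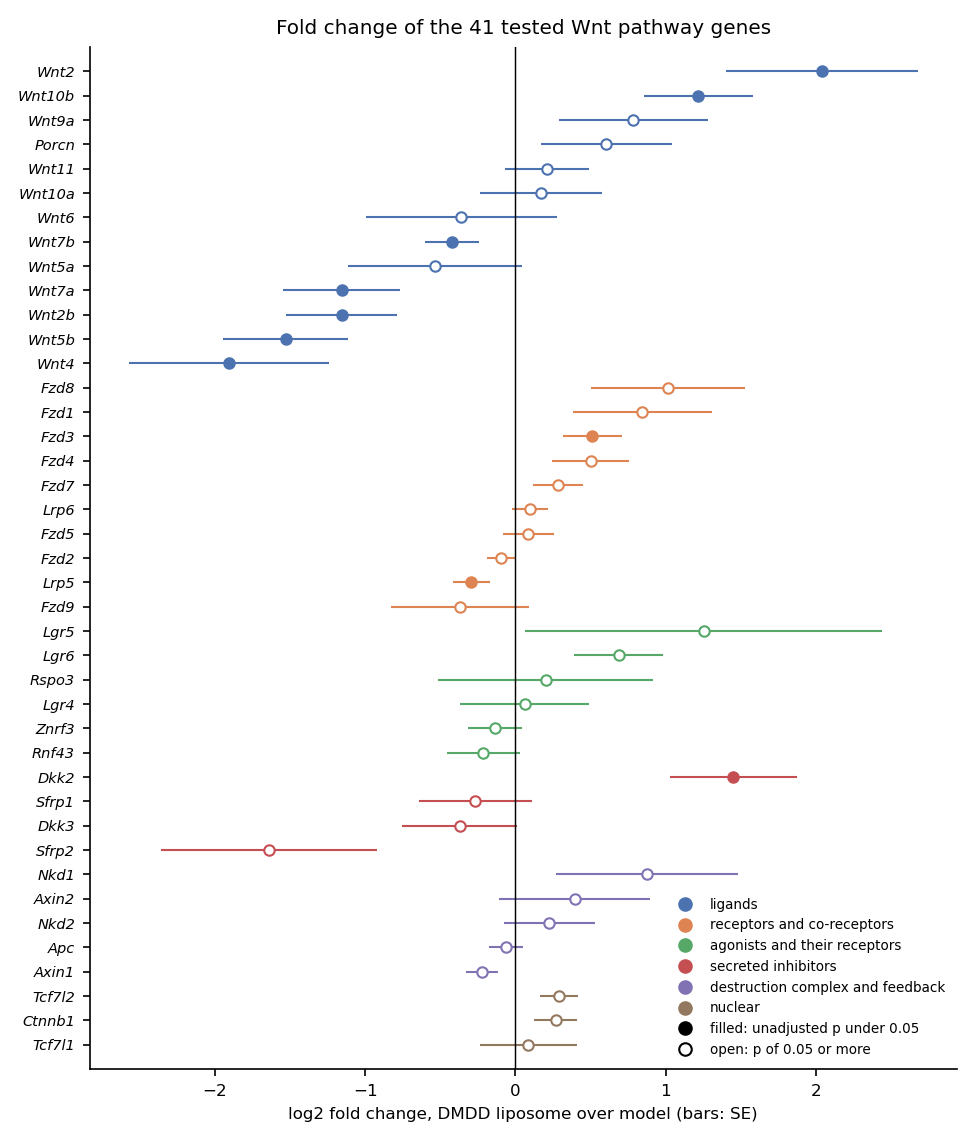
Log2 fold change of DMDD liposome over model with its SE (horizontal axis) for the 41 tested genes, colored by role; filled points have an unadjusted p under 0.05 and none passed after adjustment. Ligand genes spread from -1.90 for Wnt4 to 2.04 for Wnt2, and the 3 nuclear genes lie between 0.09 and 0.29.

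Of the genes for the destruction complex and feedback, 5 of 5 were tested and 0 had an unadjusted p under 0.05 (edgeR called 0). Axin1, the scaffold of the complex, measured 122, 113 and 101 CPM across model samples, against 92.9, 91.9 and 103 CPM across DMDD liposome samples. DMDD liposome replicate 3 was above model replicate 3, so the groups of Axin1 overlapped (log2 fold change -0.22 ± 0.11, unadjusted p = 0.0756, adjusted p = 0.666). Apc, the tumor suppressor that holds beta-catenin in the complex, measured 90.01, 71.1 and 77.6 CPM across model samples, against 75.9, 79.1 and 73.4 CPM across DMDD liposome samples, again with overlap (log2 fold change -0.063 ± 0.11, unadjusted p = 0.599, adjusted p = 0.905). Axin2, Nkd1 and Nkd2, which the pathway itself switches on and which dampen it, shared their highest library. Axin2 measured 2.99, 4.45 and 3.09 CPM across model samples, against 3.12, 8.46 and 2.32 CPM across DMDD liposome samples. Nkd1, an inhibitor of Dishevelled, had 32, 28 and 16 counts across model samples, against 29, 82 and 22 counts across DMDD liposome samples. Its relative Nkd2 measured 10.96, 13.5 and 7.22 CPM across model samples, against 10.8, 16.8 and 9.47 CPM across DMDD liposome samples. All of these were highest in DMDD liposome replicate 2, and the groups of all of them overlapped. Without DMDD liposome replicate 2 their log2 fold changes went from 0.39 to -0.38 for Axin2, from 0.87 to 0.0034 for Nkd1 and from 0.23 to -0.064 for Nkd2. Axin2 and Nkd1 were chosen after their values were seen.

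At the nuclear end, Ctnnb1 measured 1314, 1021 and 1085 CPM across model samples, against 1464, 1244 and 1403 CPM across DMDD liposome samples. The lowest DMDD liposome library, replicate 2, lay between the model libraries (log2 fold change 0.27 ± 0.14, unadjusted p = 0.101, adjusted p = 0.678). Tcf7l2, the TCF factor of gut and metabolic tissues, measured 29.5, 26.2 and 25.3 CPM across model samples, against 34.3, 29.5 and 35.3 CPM across DMDD liposome samples. Model replicate 1 and DMDD liposome replicate 2 were level, and the other 2 DMDD liposome libraries were higher (log2 fold change 0.29 ± 0.13, unadjusted p = 0.0545, adjusted p = 0.644). Tcf7l1, mainly a repressor, measured 25.5, 12.96 and 11.1 CPM across model samples, against 19.7, 14.3 and 18.5 CPM across DMDD liposome samples, with model replicate 1 the highest of all (log2 fold change 0.086 ± 0.32, unadjusted p = 0.796, adjusted p = 0.961). Without model replicate 1 all 3 nuclear genes had an unadjusted p under 0.05 in edgeR, each higher in DMDD liposome, where 16.3% of all genes in that fit had such a p, with log2 fold changes of 0.38 for Ctnnb1, 0.36 for Tcf7l2 and 0.54 for Tcf7l1 (adjusted p = 0.239, 0.254 and 0.261). Messenger level does not show the amount of beta-catenin protein, which is also controlled by its breakdown and was not measured here.

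Single libraries stood out across the set. DMDD liposome replicate 2 was the highest library for 16 of the 41 tested genes (39.0%), against 18.7% of all genes tested, and DMDD liposome replicate 1 was the lowest for 14 (34.1%), against 14.6%. Genes highest in DMDD liposome replicate 2 were Axin2, Dkk3, Fzd1, Fzd3, Fzd4, Fzd8, Lgr5, Nkd1, Nkd2, Porcn, Rspo3, Wnt2, Wnt5a, Wnt10a, Wnt10b and Wnt11, which include ligands, receptors and feedback genes. Model replicate 1 was the highest for 10 (24.4%, against 14.5% of all genes), among them Axin1, Apc, Lrp5 and Lrp6. These counts were made after the values were seen and describe the libraries. The 10 genes with an unadjusted p under 0.05 became 5 without DMDD liposome replicate 1 (background 3.66%), 10 without its replicate 2 (8.68%) and 8 without its replicate 3 (6.53%). They became 17 without model replicate 1 (16.3%), 7 without model replicate 2 (5.54%) and 7 without model replicate 3 (4.79%).

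**Figure D5:**
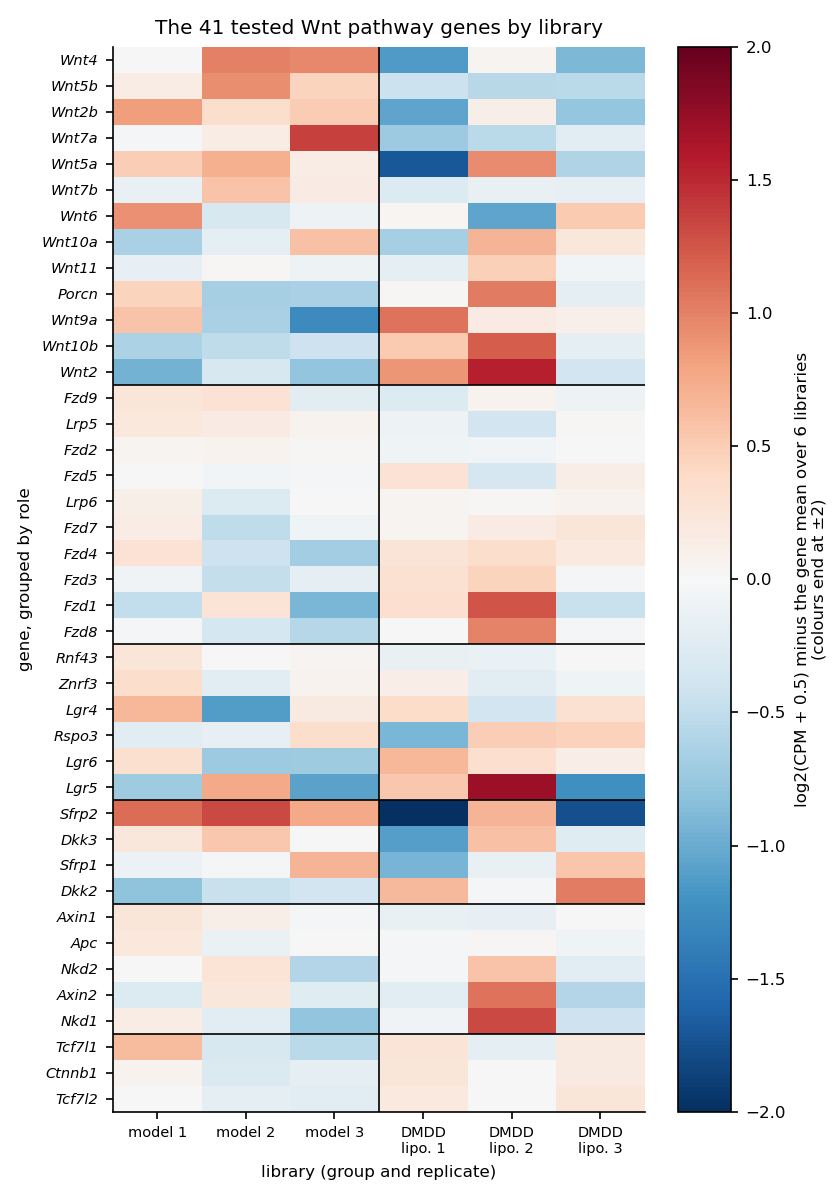
Log2(CPM + 0.5) of each of the 41 tested genes minus its mean over the 6 libraries (color, red above and blue below the mean; colors end at 2 in either direction), with libraries as columns and genes grouped by role. DMDD liposome replicate 2 is red for Axin2, Nkd1, Lgr5, Wnt2 and Wnt10b, and DMDD liposome replicates 1 and 3 are blue for Sfrp2.

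Other genes of the pathway were read from lists that do not overlap the set, and edgeR called 0 of them, while Notum, Apcdd1, Lef1 and Tcf7 stand in 2 of the lists. Of 14 tested genes for Wnt secretion and extracellular control, 11 were negative (median log2 fold change -0.14). In that list 1 (7.14%) had an unadjusted p under 0.05, against 7.65% of all genes tested. That 1 was Notum, which strips the lipid from Wnt proteins and is itself a target of the pathway: it measured 46.4, 69.2 and 74.8 CPM across model samples, against 38.2, 41.1 and 31.4 CPM across DMDD liposome samples. Its groups did not overlap, with DMDD liposome lower (log2 fold change -0.78 ± 0.20, unadjusted p = 0.00479, adjusted p = 0.626), and it was the 1 gene of that list to pass edgeR's adjusted test without model replicate 1 (log2 fold change -0.96, adjusted p = 0.0454). After Notum came Dact2, a Dishevelled antagonist, at -0.45 ± 0.22, Reck, a partner of Wnt7 receptors, at 0.40 ± 0.22 and Draxin, an antagonist of neural tissue, at -1.24 ± 0.76. Of 17 genes for Dishevelled and the destruction complex, 14 were negative (median -0.095). The 1 (5.88%) with an unadjusted p under 0.05 was Apc2, a neural relative of Apc, at -0.97 ± 0.29 (edgeR adjusted p = 0.626). The next smallest p in that list were those of Amer1 at -0.22 ± 0.11, Dvl2 at -0.19 ± 0.11 and Dvl1 at -0.15 ± 0.10, the last 2 being Dishevelled proteins that carry the signal inside the cell. Of 16 nuclear cofactors, 10 were positive (median 0.14). Tle2, a corepressor of the Groucho family, stood at 0.67 ± 0.23 (edgeR adjusted p = 0.626) as the 1 (6.25%) with an unadjusted p under 0.05. It was followed by its relative Tle6 at 0.30 ± 0.14, the beta-catenin cofactor Bcl9l at -0.32 ± 0.18 and the acetyltransferase Ep300 at -0.13 ± 0.09. Lef1, a TCF/LEF factor that Wnt signals induce, was chosen after its values were seen and had 91, 15 and 21 counts across model samples, against 110, 96 and 56 counts across DMDD liposome samples, with model replicate 1 among the DMDD liposome libraries.

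Of 17 genes of planar polarity and beta-catenin-independent signaling, 11 were positive (median 0.23). Against 7.65% of all genes tested, 2 (11.8%) had an unadjusted p under 0.05. They were Celsr1, a polarity cadherin, at -0.45 ± 0.16 and Nfatc1, a calcium-driven factor, at 0.42 ± 0.16, followed in p by Camk2d, a calcium-dependent kinase, at -0.29 ± 0.13 and Ror1, a Wnt5a receptor, at 0.91 ± 0.47. Of 17 tested target genes, 11 were negative (median -0.22) and 5 (29.4%) had an unadjusted p under 0.05, against 7.65% of all genes tested, Notum included, with members on both sides. Sox9, a factor of progenitor cells, measured 55.97, 68.1 and 83.5 CPM across model samples, against 29.7, 47.1 and 45.04 CPM across DMDD liposome samples, without overlap and lower in DMDD liposome (log2 fold change -0.77 ± 0.21, unadjusted p = 0.00783, adjusted p = 0.626). Tnfrsf19, also called Troy, measured 12.8, 4.32 and 8.01 CPM across model samples, against 28.2, 20.1 and 15.3 CPM across DMDD liposome samples, without overlap and higher in DMDD liposome (log2 fold change 1.34 ± 0.40, unadjusted p = 0.0106, adjusted p = 0.626). Wisp1, a matricellular protein, stood higher at 0.57 ± 0.22 and Ephb2, a guidance receptor, lower at -0.35 ± 0.14, both with overlapping groups. Myc and Ccnd1, growth genes under many other controls that were chosen after their values were seen, had log2 fold changes of 0.083 and -0.39.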

How the data were processed

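Gene expression was measured by RNA sequencing of total RNA from tumors. Groups and replicate numbers came from the sample descriptions. Whole-number read counts of each gene were deposited, as the header of the table names them. The table also held a normalized signal, deposited as counts divided by a size factor per library, and deposited FPKM values, which gave a whole-number gene length for 16763 of 16763 genes within 0.01. The deposited log2 fold changes have model in the numerator, so their sign is opposite to that used here (as checked for 15440 of 15502 genes), and stand beside the authors' p-values and adjusted p-values. DESeq2 and the build mm9 are named in the submitters' processing notes, with no aligner, counter or strand setting given in the sources used here.

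Counts were tested with edgeR 4.0.16 (R 4.3.3): TMM scaling, filterByExpr (minimum count 10, minimum total 15), quasi-likelihood fit on all 6 libraries, two-sided, Benjamini-Hochberg over 12891 genes, threshold 0.05. CPM are scaled by TMM, and log2 fold changes carry the SE of that fit. Scripts were tested on simulated data. DESeq2 1.42.0, limma 3.58.1 (voom), no filter, a stricter threshold of 0.01, a replicate block and leaving out each library were alternatives. Replicate libraries differed beyond sampling noise, so each counted once. Named in full were genes with an unadjusted p under 0.05, genes whose groups did not overlap, and the 3 highest by FPKM in each role (28 genes), and of the other lists up to 4 genes with the smallest p. The genes and lists were chosen with earlier results of these data known. All 52 symbols matched the mouse gene name table. Counts of 3 or fewer were taken as the floor, for counting error only.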

Additional observations from a re-analysis of the deposited data

How the results depend on the processing

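Over all genes, edgeR called 0, DESeq2 called 59, edgeR with a library left out called 0 to 112 (112 without model replicate 1), and DESeq2 without model replicate 1 called 867, the last chosen after seeing the data. Of the Wnt pathway genes, 0 were called, with 0 to 1 when a library was left out and 5 by DESeq2 without model replicate 1. The 10 genes at an unadjusted p under 0.05 became 5 to 17 when a library was left out, where 3.66% to 16.3% of all genes had such a p. The 17 and the 16.3% both came without model replicate 1. DESeq2 without model replicate 1 gave 18, and the share over all genes was not counted for that fit. The median log2 fold change was -0.095 with no filter on low counts, where more genes are measured, -0.087 by DESeq2 over the genes it gave a value, and -0.045 to 0.19 when a library was left out. With the replicate number as a block, edgeR called 0 genes and 12 Wnt pathway genes had an unadjusted p under 0.05 (median 0.16). The share over all genes was not counted for the block fit either. The numbers were not taken to pair the libraries, since the deviations of same-numbered libraries correlated at 0.0876, 0.114 and 0.121 over genes, although each library correlated best with its own number, a hint from the data and not from the design. Of 308 alternative values for the 28 named genes, 292 kept their direction and side of the threshold. Lgr6 alone gained a call, without model replicate 1. The other 15, in 8 of the named genes, reversed, and these genes had log2 fold changes over 6 libraries between -0.27 and 0.23. The named genes were chosen in part for a small p or separate groups, and edgeR called 0 of them over 6 libraries. The tally thus leans to stable values. Leaving out a library gave log2 fold changes for Apc from -0.15 to 0.035, Lgr4 from -0.31 to 0.48, Lrp6 from -0.011 to 0.19, Nkd2 from -0.064 to 0.44, Sfrp1 from -0.71 to 0.032, Tcf7l1 from -0.15 to 0.54, Wnt10a from -0.18 to 0.57 and Znrf3 from -0.28 to 0.019. Wnt10a was at -0.17 by limma-voom with sample quality weights. Some tested genes outside the 28 reversed from larger values. Without DMDD liposome replicate 2, Lgr5 went from 1.25 to -0.0074 and Axin2 from 0.39 to -0.38. Without model replicate 1, Wnt6 went from -0.36 to 0.24. The causes of these reversals were not tested. Depth left 11 genes, with at most 14 counts in any library, untested.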
